A study of Rattus norvegicus with 93 samples.

Results

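Zinc finger transcription factor genes were followed in rat bone marrow as a class of short-lived transcripts. The class was defined by name alone: every probe set with 1 annotated symbol beginning with Zfp, Zbtb or Zscan and a number, without the Zfp36 and Zfp36l genes, with the probe set of highest mean over all 93 arrays standing for its gene. This gave 100 of the 7810 genes with 1 symbol among the deposited probe sets, which the authors had already filtered. Of the 100, 82 are named Zfp, 15 Zbtb and 3 Zscan. They are represented by 138 of the 12532 probe sets tested, and 23 of them had 2 or more probe sets. Among them, Zbtb8os is a neighbour of a Zbtb gene and encodes a cofactor of transfer RNA ligation, so it is a member by name only. The proteins of the other members were not checked for zinc fingers or a role in transcription, so more of them may be members by name only. Transcript turnover was not measured in these samples.

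Zinc finger proteins of the C2H2 kind fold short loops around zinc ions and read DNA with an array of such fingers. Many members of the Zfp and Zscan groups carry a KRAB or SCAN domain beside the fingers. KRAB domains recruit the corepressor Trim28, and the BTB domain of Zbtb proteins recruits corepressors such as Ncor1 and Bcor. In marrow, Zbtb7a takes part in red cell maturation and in the choice between B and T cells, Zbtb20 is found in B lineage and plasma cells, and Zfp521 is a cofactor of blood progenitors.

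Left femur marrow of 93 male Sprague-Dawley rats aged 8 weeks was taken 1, 6 or 24 h after dosing ended, and each rat gave 1 array. Each rat received 2 consecutive infusions of 30 min. The topotecan dose was 4.7 mg/kg and the oxaliplatin dose 15 mg/kg. Topotecan traps topoisomerase I on nicked DNA in front of transcribing and replicating polymerases, and oxaliplatin forms platinum adducts within and between DNA strands. Topotecan alone was given first (topotecan/D5W) or second (D5W/topotecan), oxaliplatin alone first (oxaliplatin/NaCl) or second (NaCl/oxaliplatin), and the combination in either order (topotecan/oxaliplatin, oxaliplatin/topotecan). The vehicle groups were NaCl/D5W and D5W/NaCl, where NaCl is saline and D5W is dextrose in water. Each group held 4 rats per time, except that oxaliplatin/NaCl at 6 h and both D5W/NaCl and topotecan/D5W at 24 h held 3. No allele or transgene was involved. Because time was counted from the end of the second infusion, the time since topotecan was longer where topotecan came first, by the 30 min between the infusions and the second infusion itself.

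Signals are given on the log2 scale. A change is the log2 fold change from vehicle, and its standard error (SE) comes from limma. Topotecan/D5W, topotecan/oxaliplatin and NaCl/oxaliplatin were set against NaCl/D5W of the same time and the other 3 treatments against D5W/NaCl, so treatments in a set share vehicle rats. A gene is called higher or lower at a Benjamini-Hochberg adjusted p under 0.01 over all 12532 probe sets, with no minimum fold. Array medians ran from 8.79 to 9.30, pairs of arrays correlated at 0.831 to 0.995, and 0 of the pairs held the same values. Only 33 of the 100 members lay above the median probe set mean of 9.08. In bulk marrow, fewer cells of a type and less RNA per cell cannot be told apart. Of 7 measured early p53 genes, all 7 were higher at 1 h in 5 treatments and 3 in NaCl/oxaliplatin. Of all probe sets 0.575% to 9.77% were higher in the 5, and 0.136% in NaCl/oxaliplatin. Skeletal muscle genes were high (over 2 log2 units above the median array) on 3 arrays, 2 of oxaliplatin/NaCl at 24 h and 1 of topotecan/oxaliplatin at 6 h.

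A pair of promoters is shown for the members that moved most at 1 h in opposite directions in all 4 topotecan-containing treatments: Zfp688, which rose, and Zfp277, which fell. Each is the stretch of 200 bases before the RefSeq start in build GRCr8, on the minus strand, at chr1:191473528-191473727 for Zfp688 and chr6:63239832-63240031 for Zfp277. Capitals mark GC boxes (GGGCGG), ETS motifs (CCGGAAG) and CCAAT boxes (CCAAT) on either strand; a GC box and a CCAAT box can share bases.
Zfp688: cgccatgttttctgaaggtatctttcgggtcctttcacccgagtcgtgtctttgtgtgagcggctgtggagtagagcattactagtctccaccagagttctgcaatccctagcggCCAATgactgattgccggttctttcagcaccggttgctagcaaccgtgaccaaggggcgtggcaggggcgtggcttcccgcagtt
Zfp277: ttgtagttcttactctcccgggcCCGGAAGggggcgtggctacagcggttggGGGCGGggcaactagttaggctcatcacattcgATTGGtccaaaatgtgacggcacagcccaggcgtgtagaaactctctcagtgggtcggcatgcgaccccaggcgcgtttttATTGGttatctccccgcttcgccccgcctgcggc
Over the 250 bases before the start, which RefSeq gave for 84 members, the ETS motif was found in 19 (22.6%), against 16.3% of 6469 other measured genes and 7.78% of all 27457 promoters. GC boxes were found in 44 (52.4%), against 60.0% and 32.3%, and CCAAT boxes in 29 (34.5%), against 36.5% and 34.2%. The E-box CACGTG was found in 6 (7.14%), against 8.66% and 5.77%, and the NRF1 core GCGCATGC in 4 (4.76%), against 4.82% and 2.38%. Members that rose at 1 h in any topotecan-containing treatment held a GC box in 12 of 19 promoters, and members that fell in 14 of 25. The median GC content was 57.6% in the former and 59.2% in the latter. These counts describe letters in a window and not binding.

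One hour after dosing, the zinc finger genes did not move as 1 class. Topotecan raised some and lowered others, and the median member stayed near 0, at 0.05 in topotecan/D5W, 0.08 in D5W/topotecan, -0.10 in topotecan/oxaliplatin and -0.08 in oxaliplatin/topotecan. The medians of all probe sets were -0.09, -0.04, -0.14 and -0.13. In topotecan/D5W 10 members were lower and 15 higher, where 26% of all probe sets were lower and 9.18% higher. In D5W/topotecan the counts were 21 and 17, beside 19.5% and 7.67% of all probe sets. In topotecan/oxaliplatin they were 22 and 11, beside 32.9% and 9.77%. In oxaliplatin/topotecan they were 28 and 14, beside 27.6% and 7.21%. The shares of members that were higher thus lay above those of all probe sets in all 4, and the shares that were lower lay well below them in topotecan/D5W and topotecan/oxaliplatin.

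The split between directions moved with the scaling. After a second quantile normalization, which shifted the median of all probe sets to 0.01, 0.03, 0.01 and 0.02 in the same order, the counts of lower and higher members were 8 and 26, 18 and 29, 12 and 31, and 23 and 25. In this setting 19.6%, 16.7%, 22.2% and 18.8% of all probe sets were lower and 15.2%, 12.2%, 17.6% and 14.9% higher. The members' medians became 0.16 in topotecan/D5W, 0.09 in topotecan/oxaliplatin and 0.16 in oxaliplatin/topotecan, so the last 2 changed sign. By animal set (the first and the second 6 animal numbers of a group) the median was -0.10 and 0.15 in topotecan/D5W, so its sign differed between the sets. Array medians at 1 h were lower in every rat of the first set than of the second in 6 of the 8 groups, as in oxaliplatin/topotecan (both 8.79 against 8.95 and 8.97).

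Oxaliplatin alone moved almost none of them at 1 h. In oxaliplatin/NaCl 2 members were lower and 0 higher, beside 0.654% and 0.575% of all probe sets, and 9 of 100 had an unadjusted limma p under 0.05. The 2 were Zfp521 (-0.91, SE 0.19, adjusted p = 0.00377) and Zfp407 (-0.51, SE 0.12, adjusted p = 0.01, just under the threshold), both among the longest genes of the class. The count was 0 with only the compared groups in the fit, and also without any 1 of vehicle rats 14, 19 and 20 or rats 37 and 38. In NaCl/oxaliplatin limma called 0 members either way, beside 0.0239% lower and 0.136% higher of all probe sets. There 11 members had an unadjusted limma p under 0.05. At that unadjusted p, 1023 of all 12532 probe sets were lower in oxaliplatin/NaCl and 1362 in NaCl/oxaliplatin. The 9 and 11 members cover both directions, so they cannot be set directly against these counts. No share of all probe sets over both directions was taken, so the 9 and 11 carry no result about the class.

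**Figure D1:**
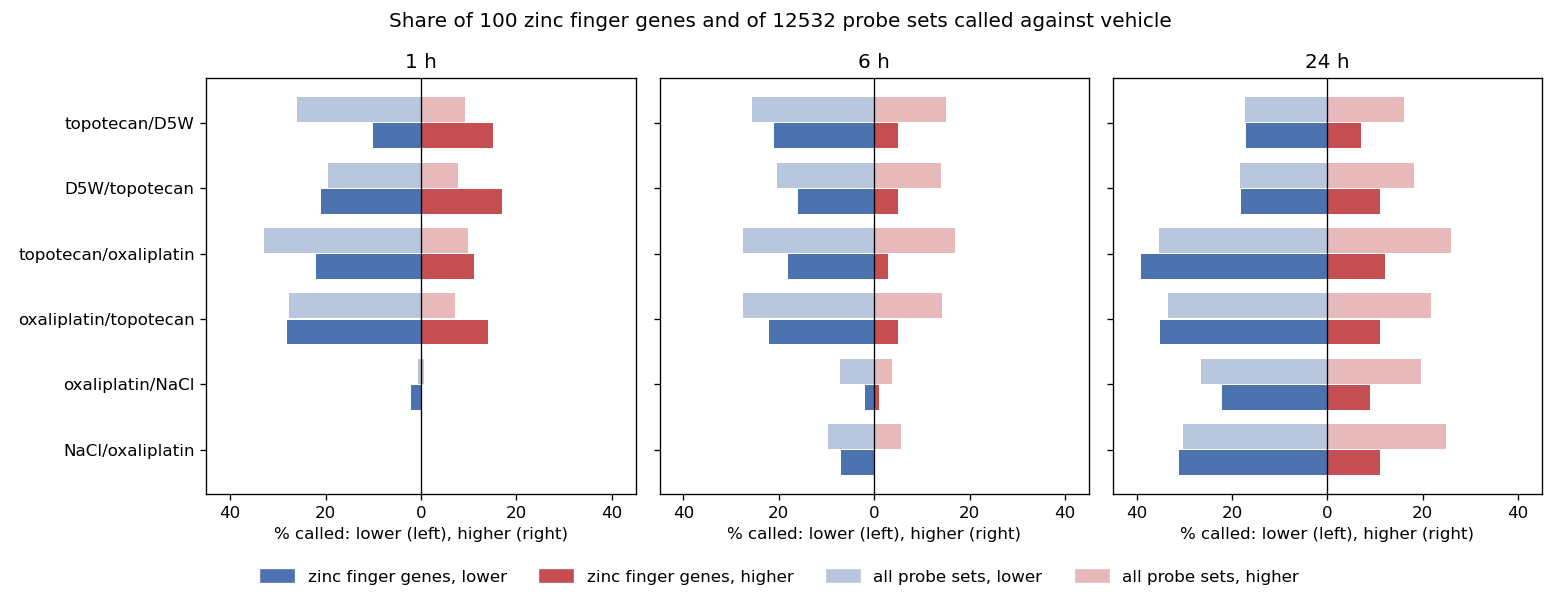
Share (%) of the 100 zinc finger genes (dark bars) and of all 12532 probe sets (light bars) called lower (left) or higher (right) than vehicle, per treatment, at 1, 6 and 24 h. At 6 h the members were called higher less often than all probe sets in every treatment, while at 1 h they were called higher more often in the 4 topotecan-containing treatments.

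The genes that rose at 1 h were short. Zfp688, a zinc finger gene of 3.7 kb, rose most in each topotecan-containing treatment. Its log2 signals were 7.44, 7.43, 7.29 and 6.98 in NaCl/D5W rats and 9.30, 8.88, 9.02 and 9.56 in topotecan/D5W rats. In D5W/NaCl rats they were 7.65, 7.50, 7.53 and 7.40, and in D5W/topotecan rats 8.86, 9.02, 9.39 and 9.03. Every topotecan rat lay above every vehicle rat by over 1 log2 unit. The changes were 1.91 (SE 0.17), 1.56 (SE 0.14), 1.78 (SE 0.17) and 1.41 (SE 0.14) in topotecan/D5W, D5W/topotecan, topotecan/oxaliplatin and oxaliplatin/topotecan, with 0.36 and 0.21 in oxaliplatin/NaCl and NaCl/oxaliplatin (limma adjusted p = 0.225 and 0.617).

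In all 4 topotecan-containing treatments, 7 of the 100 members were higher, beside 3.21% of all probe sets: Zfp688, Zfp513, Zfp281, Zfp703, Zbtb5, Zfp580 and Zfp219. Their genes span 2.2 to 22.6 kb, with a median of 4.2 kb. Zfp281, which binds GC-rich promoters, rose by 0.40, 0.66, 0.50 and 0.60 (SE 0.10, 0.13, 0.10 and 0.13). Its rats did not overlap with vehicle in 3 of the 4, and in oxaliplatin/topotecan 1 rat at 9.05 lay just under the highest vehicle rat at 9.06. Zbtb5, which encodes a BTB repressor described on the Cdkn1a promoter, rose by 0.68, 0.70, 0.70 and 0.46 (SE 0.11, 0.10, 0.11 and 0.10). Zfp580 rose by 0.87, 0.59, 0.90 and 0.45, and Zfp219, which binds GC-rich DNA, by 0.60, 0.97, 0.53 and 0.87. Zfp703 and Zfp503 are related corepressors; Zfp703 rose by 0.42, 0.56, 0.79 and 0.60. Zfp503 was at 0.46 in topotecan/D5W (adjusted p = 0.0303) and rose by 0.91, 0.70 and 1.13 in the other 3. Zfp597 rose in D5W/topotecan (0.91) and oxaliplatin/topotecan (0.69), as did Zfp830 (0.77 and 0.61), a splicing-associated gene. Higher in any of the 4 were 23 members, beside 15.5% of all probe sets, with a median length of 7.5 kb and a longest gene of 30.3 kb.

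The genes that fell were mostly long. Those lower in all 4 topotecan-containing treatments were 5 members, beside 11.2% of all probe sets: Zfp277, Zfp521, Zfp407, Zfp638 and Zfp326, with lengths of 40.7 to 399.2 kb. Zfp277, which encodes a partner of Polycomb repressors, had signals of 8.49, 8.64, 8.24 and 8.43 in NaCl/D5W and 7.10, 7.46, 7.27 and 7.21 in topotecan/D5W. With topotecan followed by oxaliplatin they were 6.90, 7.32, 6.53 and 7.05. No treated rat reached the lowest vehicle rat. It changed by -1.19, -0.88, -1.50 and -1.23 on the log2 scale in topotecan/D5W, D5W/topotecan, topotecan/oxaliplatin and oxaliplatin/topotecan (SE 0.11, 0.15, 0.11 and 0.15). Zfp407 (399.2 kb) changed by -1.16, -1.11, -1.28 and -0.71 (SE 0.11, 0.12, 0.11 and 0.12). Zfp521 (292.9 kb) changed by -1.07, -0.95, -1.17 and -1.21. Zfp638, a DNA-binding protein that silences unintegrated viral DNA, changed by -0.39, -0.93, -0.67 and -1.16. A dimmer second probe set of Zfp638 fell in D5W/topotecan and oxaliplatin/topotecan (-1.09 and -1.11). It was not called in topotecan/D5W (-0.21, limma adjusted p = 0.336) or topotecan/oxaliplatin (-0.44, limma adjusted p = 0.0296). Zfp326, part of a complex that couples elongating polymerase to splicing, changed by -0.37, -0.38, -0.53 and -0.50. Zfp292 (80.3 kb) was at -0.23 in topotecan/D5W (adjusted p = 0.203) and changed by -0.84, -0.50 and -1.24 in the other 3, and 4 of its 5 probe sets were lower in D5W/topotecan and oxaliplatin/topotecan. Only 3 of the 5 were lower in all 4 without vehicle rat 2, and 3 without rat 31 of topotecan/D5W. Lower in any of the 4 were 32 members, beside 42.6% of all probe sets, with a median length of 67.5 kb and a shortest gene of 2.3 kb, and 0 members were lower in one and higher in another. Among the short genes, Zfp61 (7.9 kb) changed by -0.78 in topotecan/oxaliplatin and was not called in the other topotecan-containing treatments.

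**Figure D2:**
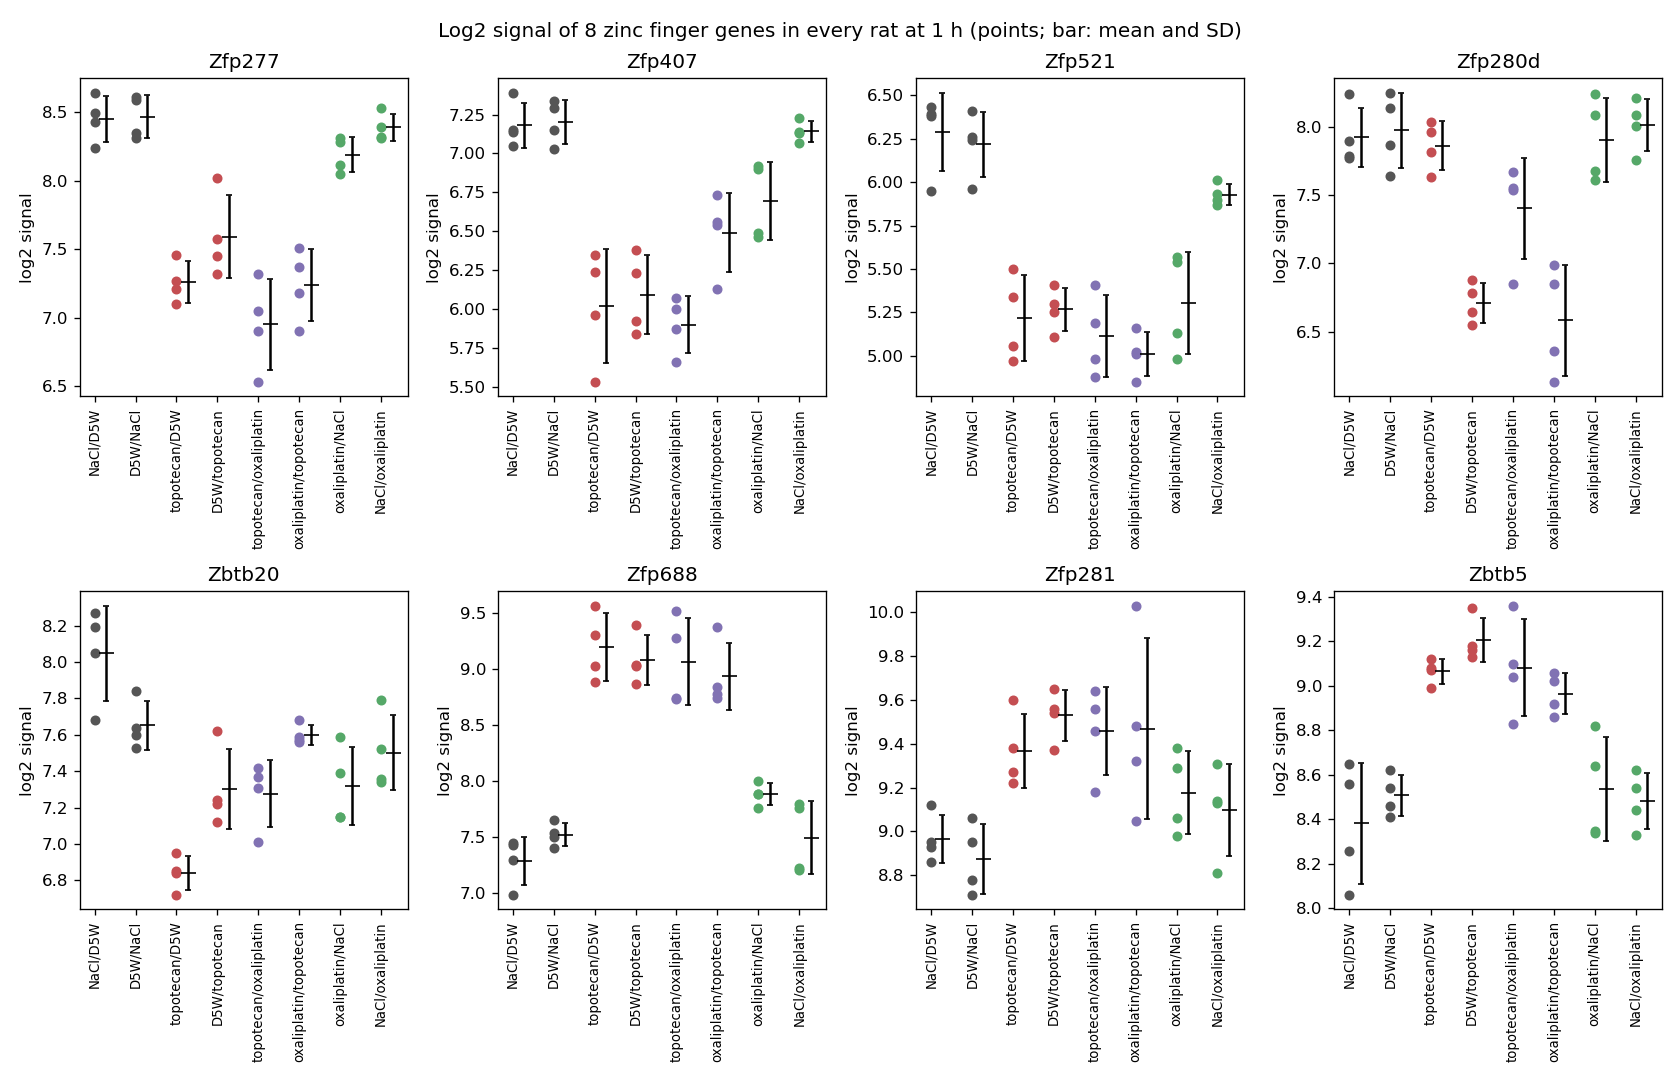
Log2 signal (y axis) of 8 zinc finger genes in every rat at 1 h, by group (x axis; grey vehicle, red topotecan alone, purple combinations, green oxaliplatin alone), with the mean and SD beside the points. Zfp277, Zfp407 and Zfp521 lie below vehicle in all 4 topotecan-containing groups, Zfp688 and Zbtb5 above it, and Zfp280d is low mainly where topotecan came second.

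Gene length from the RefSeq annotation (GRCr8), known for 99 of the 100, ran from 1.46 to 739.0 kb with a median of 22.6 kb, close to the 24.3 kb of 7692 other genes. Across these 99 genes the rank correlation (Spearman's rho) of the change at 1 h with length was -0.49 in topotecan/D5W, -0.76 in D5W/topotecan, -0.55 in topotecan/oxaliplatin and -0.75 in oxaliplatin/topotecan. Across the other genes it was -0.41, -0.61, -0.46 and -0.60. These correlations are descriptions: genes are not independent replicates, and the treatments of a set share vehicle rats. In oxaliplatin/NaCl and NaCl/oxaliplatin rho was -0.46 and -0.35 among the members and -0.35 and -0.25 among other genes, although almost none was called there. Between the vehicle groups (NaCl/D5W minus D5W/NaCl) at 1 h it was 0.03. The rank correlation of the members' changes with their mean signal was 0.05 to 0.11 in the topotecan-containing treatments.

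The same can be read from length classes, whose limits of 10, 25 and 60 kb were set after the values were seen. Of 22 members under 10 kb, 9, 11, 8 and 8 were higher in topotecan/D5W, D5W/topotecan, topotecan/oxaliplatin and oxaliplatin/topotecan, and 1, 0, 2 and 1 lower. Among 1936 other genes of that length 17.2%, 18.7%, 18.8% and 17.3% were higher, and 16.4%, 1.24%, 20.0% and 3.31% lower. Of 21 members of 60 kb or more, 0 were higher in any of the 4, and 7, 14, 13 and 16 were lower. Among 1881 other genes of that length 50.5%, 51.3%, 62.4% and 61.7% were lower, and 1.54%, 0.266%, 1.28% and 0.532% higher. In topotecan/D5W the medians were -0.22 for the long members and -0.37 for the other long genes. In oxaliplatin/topotecan the medians were -0.89 for the long members and -0.58 for the other long genes.

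**Figure D3:**
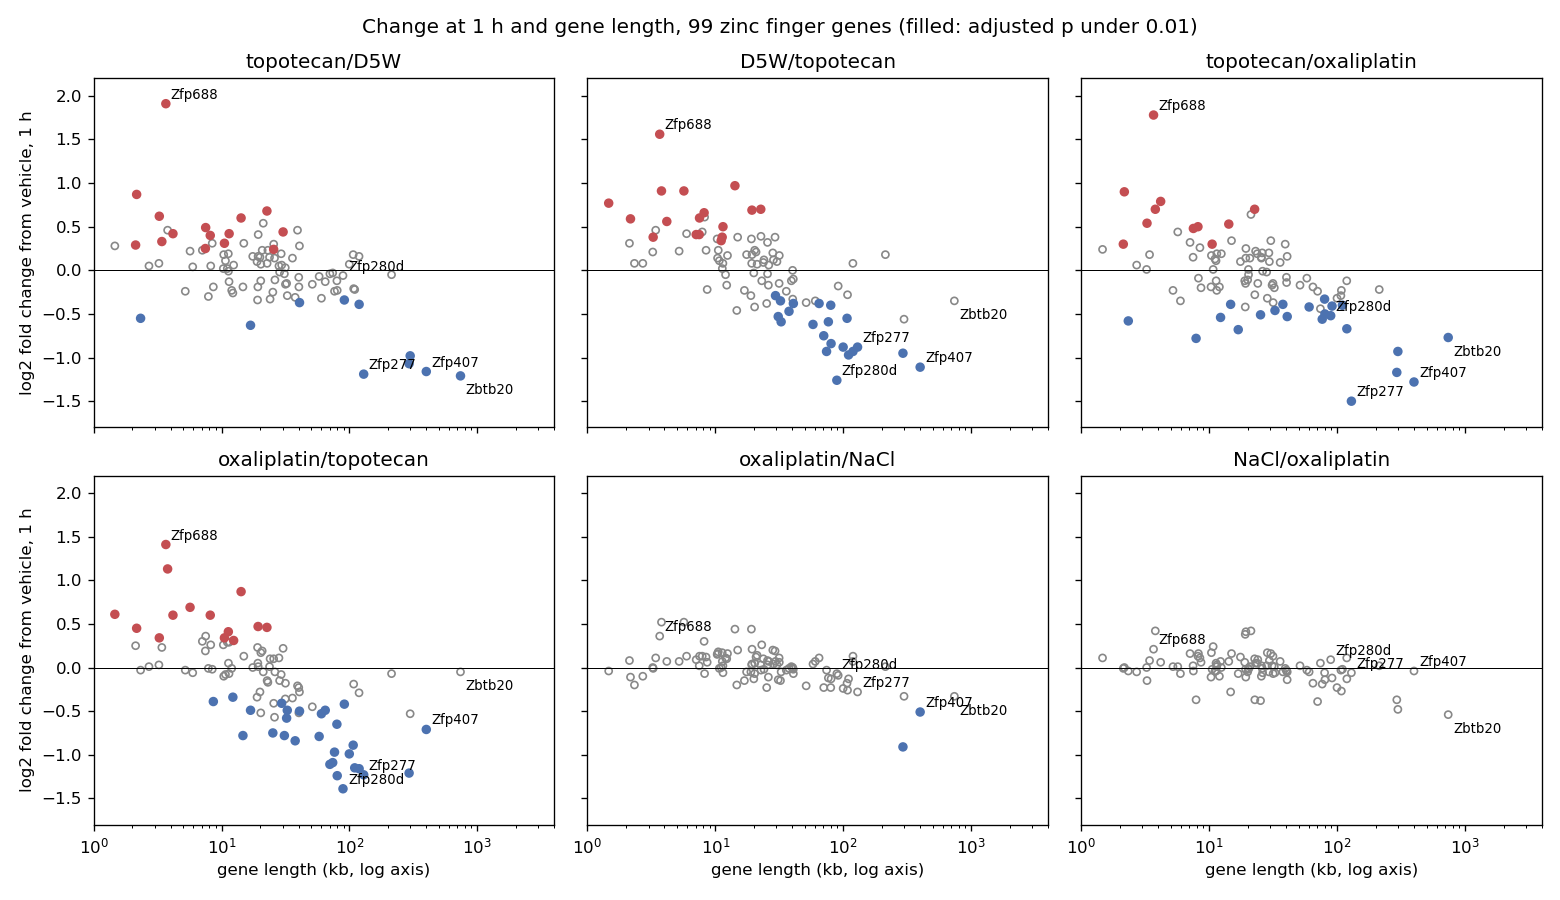
Log2 fold change from vehicle at 1 h (y axis) against gene length in kb (x axis, log scale) for 99 zinc finger genes, 1 panel per treatment, with called genes filled (red higher, blue lower). In the topotecan-containing treatments filled red points lie at 30.3 kb or less and the deepest blue points above 60 kb, and in D5W/topotecan all blue points lie above 25 kb.

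The median change of the 21 long members, from the mean of the vehicle rats, minus that of the 22 short ones was also taken in each rat. It lay between -0.49 and -0.40 in topotecan/D5W, -1.17 and -0.87 in D5W/topotecan, -0.89 and -0.54 in topotecan/oxaliplatin, and -1.19 and -0.97 in oxaliplatin/topotecan. In vehicle rats it ran from -0.05 to 0.09. Oxaliplatin/NaCl rats lay at -0.33 to -0.09 and NaCl/oxaliplatin rats at -0.26 to -0.06, below every vehicle rat. The NaCl/oxaliplatin rat at -0.06 was next to the lowest vehicle rat at -0.05. Each vehicle rat is part of the mean it was centred on, which narrows the vehicle range at every time. At 6 h the values lay at -0.30 to -0.18 in topotecan/oxaliplatin, -0.39 to -0.11 in oxaliplatin/topotecan, -0.06 to -0.02 in topotecan/D5W and -0.13 to 0.10 in D5W/topotecan. Vehicle rats then ran from -0.11 to 0.22, so every topotecan/oxaliplatin rat lay below them and oxaliplatin/topotecan reached their lowest value. At 24 h all rats, vehicle included, lay between -0.19 and 0.21.

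**Figure D4:**
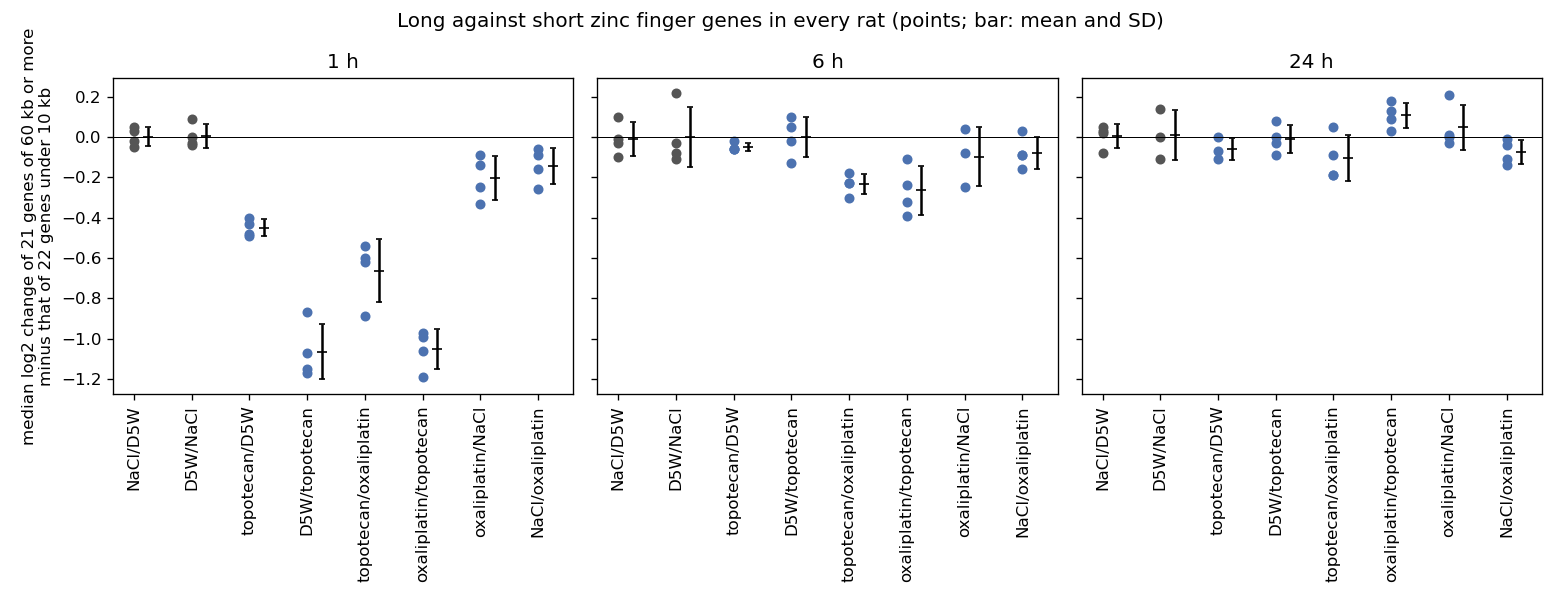
Median log2 change of the 21 zinc finger genes of 60 kb or more minus that of the 22 under 10 kb (y axis) in every rat, by group (x axis) and time (panels), with the mean and SD beside the points. At 1 h the topotecan-containing groups lie between -1.19 and -0.40, the lowest where topotecan came second, and at 24 h all groups lie near 0.

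Most members that differed with the order of the infusions fell further with topotecan second. The difference of differences between topotecan first and second called 10 members for topotecan alone, 8 with the higher value when topotecan came first and 2 with the lower one, beside 4.84% and 7.33% of all probe sets. For the combination the counts were 7 and 2, beside 5.09% and 4.76%. The 10 and 9 became 16 and 15 with animal set as a block, and 5 and 2 with only the compared groups in the fit. For the combination, 4 were called without rat 62, 5 without rat 55 and 14 without rat 49. The 8 spanned 29.5 to 110.0 kb and the 7 the same range, with medians of 81.6 and 70.4 kb, and 6 genes were in both: Zfp280d, Zfp236, Zfp710, Zfp148, Zfp512 and Zfp384. Both contrasts subtract the same difference between the vehicle groups at 1 h, so a gene called in both did not pass independent tests. The share of all probe sets called in both was not taken. The 2 of each that were lower with topotecan first were Zbtb20 (739.0 kb) and Zfp830 (1.5 kb) for topotecan alone, and Zfp407 (399.2 kb) and Zfp61 (7.9 kb) for the combination. The sample codes in the labels carry a number that is odd for both vehicle groups, topotecan/D5W and oxaliplatin/NaCl at 1 and 6 h. It is even for the other treatments at these times. What that number stands for is not given in the sources used here, so for topotecan alone the order and the code number cannot be told apart. At 1 and 6 h, treatment and code number cannot be told apart either in D5W/topotecan, NaCl/oxaliplatin and both combinations against vehicle. The same holds at 1 h for topotecan/oxaliplatin against topotecan/D5W. Both combinations have even numbers, as has NaCl/oxaliplatin.

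Zfp280d (89.1 kb) was the extreme case. Its signals were 7.63, 7.96, 8.04 and 7.82 in topotecan/D5W, within the 7.77, 7.79, 7.90 and 8.24 of NaCl/D5W but for 1 rat below them. In D5W/topotecan they were 6.55, 6.78, 6.88 and 6.64, all far below the 7.64, 7.87, 8.25 and 8.14 of D5W/NaCl. It was thus at -0.06 with topotecan first (adjusted p = 0.737) and fell by 1.26 with topotecan second, and the difference of 1.20 passed (limma adjusted p = 1.36e-05). In the combinations it changed by -0.52 (-0.34 without rat 49, adjusted p = 0.0243) and -1.39, a difference of 0.87 (adjusted p = 0.00165). Zfp148, a GC-box binding protein related to Zfp281, was at -0.22 with topotecan first and fell by 0.97 with topotecan second (difference 0.75, adjusted p = 0.000294). All 3 of its probe sets fell in oxaliplatin/topotecan, with changes of -1.15, -1.66 and -0.93. Zfp236 (99.8 kb) was at 0.07 and -0.88, a difference of 0.96, and Zfp182 (74.0 kb) at -0.03 and -0.93, a difference of 0.90.

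Zbtb20, the longest gene of the class at 739.0 kb, went the other way. Its signals were 6.72, 6.85, 6.95 and 6.84 in topotecan/D5W against 8.27, 8.05, 8.19 and 7.68 in NaCl/D5W, and 7.24, 7.62, 7.22 and 7.12 in D5W/topotecan against 7.53, 7.84, 7.60 and 7.64 in D5W/NaCl. The groups did not overlap with topotecan first and did with topotecan second. The changes were -1.21 (SE 0.15) and -0.35 (SE 0.14, adjusted p = 0.0511), and the difference of -0.85 passed (adjusted p = 0.002). A dimmer second probe set of Zbtb20 fell in all 4, with changes of -0.75, -0.48, -0.80 and -0.49 in topotecan/D5W, D5W/topotecan, topotecan/oxaliplatin and oxaliplatin/topotecan, and of -0.62 in oxaliplatin/NaCl. Order was not tested for this second probe set, which has a mean signal of only 5.83. Its fall was also the larger where topotecan came first, alone and in the combination.

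In the same test of order, 2 of 4 measured B cell genes were called for topotecan alone and 3 for the combination. Each had the higher value when topotecan came first, as had 4.84% and 5.09% of all probe sets. The B cell genes called were Ms4a1 (1.08) and Blnk (0.99), and for the combination Ms4a1 (1.65), Cd79b (1.22) and Ebf1 (1.01). Against vehicle, 3 of the 4 were lower at 1 h in D5W/topotecan and in oxaliplatin/topotecan and 1 in each topotecan-first group, with 1 higher in topotecan/oxaliplatin. Their mean log2 signal ran from 9.87 to 10.33 in D5W/topotecan against 10.78 to 11.20 in D5W/NaCl, and from 10.32 to 11.09 in topotecan/D5W against 10.48 to 11.18 in NaCl/D5W. Of 9 erythroid genes, 1 was lower in topotecan/D5W and 1 lower and 1 higher in topotecan/oxaliplatin, and 0 of 4 granulocyte genes were called in these 4 treatments. Of all probe sets, 26% were lower in topotecan/D5W, 19.5% in D5W/topotecan, 32.9% in topotecan/oxaliplatin and 27.6% in oxaliplatin/topotecan. Higher were 9.18%, 7.67%, 9.77% and 7.21%. The part of the B cell genes in the order differences was not tested.

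Topotecan and oxaliplatin at the same place in the order were compared directly as differences of differences. With the drug first, 3 members were lower and 5 higher with topotecan, beside 10.8% and 1.92% of all probe sets. They were Zfp277 (-0.91), Zbtb20 (-0.87) and Zfp407 (-0.66), and among the higher ones Zfp688 (1.55), Zfp580 (0.98) and Zbtb5 (0.65). With the drug second, 9 were lower and 13 higher, beside 11.4% and 4.89%. Zfp280d (-1.35), Zfp407 (-1.07) and Zfp182 (-0.97) led the former, and Zfp688 (1.35), Zfp219 (0.90) and Zfp597 (0.90) the latter. Between each combination and topotecan alone of the same order limma called 0 members. Beside topotecan first this was 0% of all probe sets either way, with 16 members at an unadjusted p under 0.05. Beside topotecan second it was 0.184% lower and 0.0559% higher of all probe sets, with 26 members at an unadjusted p under 0.05. At that unadjusted p, 1356 of all 12532 probe sets were lower in the combination beside topotecan first. Beside topotecan second 1730 were lower. The 16 and 26 members cover both directions, so they cannot be set directly against these counts. Here too no share of all probe sets over both directions was taken, so the 16 and 26 carry no result about the class.

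By family, 4 of 15 Zbtb members were lower and 4 higher in any topotecan-containing treatment at 1 h, 28 and 18 of 82 Zfp members, and 0 and 1 of 3 Zscan members, beside the 42.6% and 15.5% of all probe sets given above. The 4 lower Zbtb genes were Zbtb11, Zbtb20, Zbtb38 and Zbtb44, with lengths of 58.0 to 739.0 kb. The methyl-CpG-binding Zbtb38 was at 0.18 with topotecan first and fell by 0.55 with topotecan second. Zbtb44 (58.0 kb) was at -0.07 and fell by 0.62. Zbtb11 changed by -0.42 in topotecan/oxaliplatin (-0.26 without rat 49, adjusted p = 0.106) and -0.53 in oxaliplatin/topotecan. The 4 higher ones were Zbtb5, Zbtb6, Zbtb42 and Zbtb43, with lengths of 2.1 to 22.6 kb. Zbtb43 rose by 0.69 in D5W/topotecan and 0.47 in oxaliplatin/topotecan, while Zbtb42 rose by 0.29 in topotecan/D5W and 0.30 in topotecan/oxaliplatin. Zbtb6 rose by 0.33 in topotecan/D5W. Zbtb1, a gene of lymphocyte development, was not called with its brighter probe set, at 0.03 in topotecan/D5W and -0.36 in oxaliplatin/topotecan. Its dimmer probe set rose there by 0.39 and 0.52 (adjusted p = 0.00306 and 0.0052), so the 2 disagree. Zbtb4, Zbtb7a, Zbtb14, Zbtb18, Zbtb34 and Zbtb8os were not called at 1 h in any treatment, although 1 of 3 dimmer probe sets of Zbtb7a rose by 0.47 in D5W/topotecan. Of the Zscan members, Zscan21 rose by 0.44 in topotecan/D5W, and Zscan12 and Zscan26 were not called at 1 h.

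Among the 3 brightest members, 2 were called at 1 h. Zfp706, with the highest mean signal (10.98), fell by 0.39 in oxaliplatin/topotecan, Zfp217 (10.90) had a mean change of 0.01 over the 4 topotecan-containing treatments, and Zfp330 (10.67) rose by 0.38 in D5W/topotecan and 0.41 in oxaliplatin/topotecan. The dimmest were Zfp131 (5.95), Zfp521 (6.26) and Zfp423 (6.39). Nearest to 0 on average were Zfp518a, Zbtb34, Zfp217, Zfp869 and Zscan12, each within 0.01. For Zfp217 this average held 0.28 and 0.16 with topotecan first and -0.10 and -0.28 with it second, none of which passed.

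C2H2 zinc finger genes under other names were also called in both directions. Of 29 measured among 56 listed, 4 were lower and 5 higher in topotecan/D5W, 9 and 2 in D5W/topotecan, 7 and 7 in topotecan/oxaliplatin and 12 and 3 in oxaliplatin/topotecan. Their medians were 0.04, -0.11, 0.02 and -0.33. Of all probe sets 26%, 19.5%, 32.9% and 27.6% were lower and 9.18%, 7.67%, 9.77% and 7.21% higher. Bcl11a, a repressor of fetal globin genes that B cells also need, changed by -1.02, -1.95, -1.65 and -3.03, and by -0.71 in oxaliplatin/NaCl. Ctcf, the insulator protein, was at -0.22 in topotecan/D5W and fell by 0.98 in D5W/topotecan. Ikzf2 rose by 0.76, 0.61, 0.78 and 0.83. Of 21 measured corepressor genes among 25 listed, 12, 9, 12 and 12 were lower at 1 h and 0 higher, with list medians of -0.32, -0.25, -0.38 and -0.44. The others were not called, among them Cbx1, at 0.34 in D5W/topotecan (adjusted p = 0.118). Ncor1 changed by -0.98, -0.90, -1.09 and -0.84. Trim28, the partner of KRAB domains, fell by 0.38 in topotecan/D5W (adjusted p = 0.000775) and was at -0.18, -0.24 and -0.21 in the other 3.

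At 6 h falls outnumbered rises among the members in all 6 treatments. In topotecan/D5W 21 members were lower and 5 higher, beside 25.6% and 15.1% of all probe sets, and in D5W/topotecan 16 and 5, beside 20.4% and 14.1%. In topotecan/oxaliplatin the counts were 18 and 3, beside 27.6% and 17%, and in oxaliplatin/topotecan 22 and 5, beside 27.5% and 14.2%. In oxaliplatin/NaCl they were 2 and 1, beside 7.25% and 3.78%, and in NaCl/oxaliplatin 7 and 0, beside 9.69% and 5.54%. Fewer members than probe sets were called in both directions in every treatment. Medians of the members lay between -0.09 and -0.01. The rank correlation with length was 0.07, 0.08, -0.14 and -0.21 in topotecan/D5W, D5W/topotecan, topotecan/oxaliplatin and oxaliplatin/topotecan.

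The difference between 6 h and 1 h was tested within the 4 topotecan-containing treatments. In topotecan/D5W 9 members were higher at 6 h relative to vehicle than at 1 h and 14 lower, beside 13.7% and 10.5% of all probe sets. In D5W/topotecan the counts were 12 and 23, beside 16.7% and 13.9%. In topotecan/oxaliplatin they were 6 and 16, beside 17.4% and 9.36%, and in oxaliplatin/topotecan 16 and 14, beside 15.4% and 11.5%. Zfp521 turned from a fall to a rise in topotecan/D5W: at 6 h its signals were 6.79, 7.40, 7.76 and 7.19 against 6.78, 6.19, 6.17 and 6.39 in NaCl/D5W. It rose there by 0.91 (SE 0.18), which differed by 1.98 from 1 h (adjusted p = 1.32e-07). Zfp688 was at 0.38 at 6 h in topotecan/D5W, a difference of -1.53 from 1 h. Zfp407 was at 0.03 at 6 h in topotecan/D5W and -0.01 in D5W/topotecan, but was still lower in topotecan/oxaliplatin and oxaliplatin/topotecan (-0.44 and -0.75). In NaCl/oxaliplatin it was at -0.04 at 1 h and lower at 6 h (-0.53), and in oxaliplatin/NaCl it was at -0.45 at 6 h (adjusted p = 0.0101).

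Lower at 6 h in all 4 topotecan-containing treatments were 11 of the 100, beside 17.5% of all probe sets: Zbtb14, Zbtb7a, Zfp180, Zfp212, Zfp41, Zfp414, Zfp422, Zfp512, Zfp524, Zfp574 and Zfp956. None of them but Zfp512 was lower in any of these at 1 h, and Zfp41, Zfp212, Zfp422 and Zfp574 had been higher in 1 or more. Without vehicle rat 10, 7 of the 11 remained. Zfp41 changed by -0.71, -0.80, -0.78 and -0.65 (SE 0.09, 0.11, 0.09 and 0.11). Zbtb7a, the regulator of red cell maturation, had signals of 7.93, 7.92, 8.29 and 8.15 in topotecan/D5W against 8.80, 8.85, 8.92 and 8.75 in NaCl/D5W. It changed by -0.76, -0.60, -0.62 and -0.52, and no treated rat of these groups reached the vehicle rats. Zfp367, described in erythroid cells, changed by -1.06, -0.93 and -1.23 in the first 3 and was at -0.66 in oxaliplatin/topotecan (adjusted p = 0.0108). Zfp281 stayed higher in all 4, by 0.34, 0.50, 0.62 and 0.85. Zfp423, a partner of early B cell factors, fell by 1.07 in oxaliplatin/topotecan. Zbtb20 changed by -0.53 in NaCl/oxaliplatin, -0.58 in topotecan/oxaliplatin and -0.57 in oxaliplatin/topotecan. Zbtb5, which had risen at 1 h, was lower at -0.35 in topotecan/D5W and -0.38 in D5W/topotecan. Zfp395 changed by -0.63 in topotecan/D5W, -0.61 in D5W/topotecan and -0.53 in oxaliplatin/topotecan. Zfp202, which was not called at 1 h, rose by 0.76 in topotecan/D5W and 0.71 in D5W/topotecan, and Zfp608 rose by 0.38 in topotecan/D5W.

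Cell type markers had moved by 6 h. The mean signal of 9 erythroid genes ran from 12.31 to 12.92 in the topotecan-containing groups against 13.11 to 13.39 in vehicle. Of the 9, 4 were lower in topotecan/D5W, 1 in D5W/topotecan, 3 in topotecan/oxaliplatin and 2 in oxaliplatin/topotecan, and 0 or 1 higher. Of all probe sets 25.6%, 20.4%, 27.6% and 27.5% were lower in these 4, and 14.1% to 17% higher. Of 5 T cell genes 2 or 3 were higher in every treatment, where 3.78% to 17% of all probe sets were higher. Of 4 B cell genes 1 or 2 were higher in the topotecan-containing groups, where 14.1% to 17% of all probe sets were higher. Their part in the changes of the zinc finger genes at 6 h was not tested.

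At 24 h the medians of the members were below 0 in all 6 treatments. They were -0.06, -0.09, -0.24 and -0.24 in the 4 topotecan-containing treatments in the order above and -0.20 in both oxaliplatin/NaCl and NaCl/oxaliplatin. All probe sets had medians of 0.03, 0.01, -0.10 and -0.11, and of -0.04 and -0.03. In topotecan/D5W 17 members were lower and 7 higher, beside 17.3% and 16.1% of all probe sets, and in D5W/topotecan 18 and 11, beside 18.3% and 18.1%. The 24 members called in topotecan/D5W, which held 3 rats, became 11 without rat 29, 13 without rat 36, 15 without vehicle rat 11, and 11 with only the compared groups in the fit. In oxaliplatin/NaCl the counts were 22 and 9, beside 26.4% and 19.6%, and in NaCl/oxaliplatin 31 and 11, beside 30.2% and 24.9%. In topotecan/oxaliplatin they were 39 and 12, beside 35.2% and 25.9%, and in oxaliplatin/topotecan 35 and 11, beside 33.3% and 21.8%. The share of members that were higher lay below that of all probe sets in all 6. In oxaliplatin/NaCl, leaving out its 2 muscle-rich arrays gave 10 lower and 7 higher. Gene length no longer ordered the changes, with rank correlations of -0.02 to 0.07 over the 6 treatments.

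Zfp367 fell most in all 6 treatments at 24 h. Its signals were 10.11, 10.07, 9.97 and 10.03 in NaCl/D5W and 9.89, 10.07 and 9.79 in D5W/NaCl. In topotecan/oxaliplatin they were 7.62, 7.63, 8.52 and 8.34, and in NaCl/oxaliplatin 8.32, 8.42, 8.53 and 8.34. No treated rat of any group reached its vehicle rats. With topotecan alone the changes were -1.68 when it came first and -1.67 when it came second (SE 0.21 and 0.24), and with oxaliplatin alone -1.54 and -1.64 (SE 0.24 and 0.19). In the combination they were -2.02 with topotecan first and -1.96 with oxaliplatin first (SE 0.19 and 0.24). Zbtb14 changed by -0.69, -0.78, -0.57, -0.56, -0.98 and -1.10, and Zfp426 by -0.73, -0.66, -0.62, -0.78, -0.81 and -0.75, in the same order. Zfp207 changed by -0.65, -0.52, -0.60 and -0.86 in the last 4 of these, Zfp81 by -0.47, -0.85 and -0.57 in the last 3, and Zfp292 by -0.56 with topotecan first (-0.34 without rat 29, adjusted p = 0.102) and by -0.68, -0.52, -0.71 and -0.64 in the last 4. Zfp534l1 changed by -0.82, -0.72 and -0.85 in D5W/topotecan, oxaliplatin/NaCl and oxaliplatin/topotecan, which became -0.53, -0.44 and -0.57 without vehicle rat 24 (adjusted p = 0.0538, 0.102 and 0.0288). In all, 12 members were lower in all 4 topotecan-containing treatments, beside 13.7% of all probe sets, Zfp143, Zfp146, Zfp180, Zfp212, Zfp217, Zfp41, Zfp830, Zfp956 and Zbtb7a being the others. Without vehicle rat 18, 7 of the 12 remained. Zbtb7a in D5W/topotecan (-0.44) was then at -0.28, and in topotecan/D5W Zfp143 (-0.51) was at -0.32 without rat 29 and Zfp212 (-0.48) at -0.28 without rat 36.

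Higher in all 4 topotecan-containing treatments at 24 h were 6 members, beside 11.2% of all probe sets: Zfp423, Zfp503, Zfp521, Zbtb4, Zfp318 and Zfp513. Of these, 2 remained without rat 29 and 3 without rat 36 of topotecan/D5W, and 3 without vehicle rat 5 or 6. Zfp513 rose by 0.54 in D5W/topotecan, 0.60 in oxaliplatin/NaCl and 0.64 in oxaliplatin/topotecan, which became 0.32, 0.39 and 0.43 without vehicle rat 24 and still passed. Zfp423, a gene of mesenchymal and fat precursors, had signals of 5.85, 6.15, 6.01 and 6.14 in NaCl/D5W and 7.97, 7.94, 8.68 and 8.50 in topotecan/oxaliplatin. It rose by 0.99, 1.37, 1.42, 1.55, 2.24 and 1.88 in the 6 treatments as ordered for Zfp367, and Zfp503 by 0.88, 1.33, 1.15, 0.94, 1.40 and 1.40. The methyl-CpG-binding Zbtb4 rose by 0.43, 0.87, 0.84, 0.70, 0.80 and 0.97, and Zfp318, which B cells need for surface IgD, by 0.64, 0.90, 0.83, 0.62, 0.63 and 0.90. For these 4 genes every treated rat lay above every rat of its vehicle group in all 6 treatments. Of the 6, Zfp521 and Zfp423 are among the long genes that had fallen at 1 h, and Zbtb20 rose at 24 h by 0.71, 0.50, 0.51 and 0.87 in D5W/topotecan, oxaliplatin/NaCl, topotecan/oxaliplatin and oxaliplatin/topotecan.

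**Figure D5:**
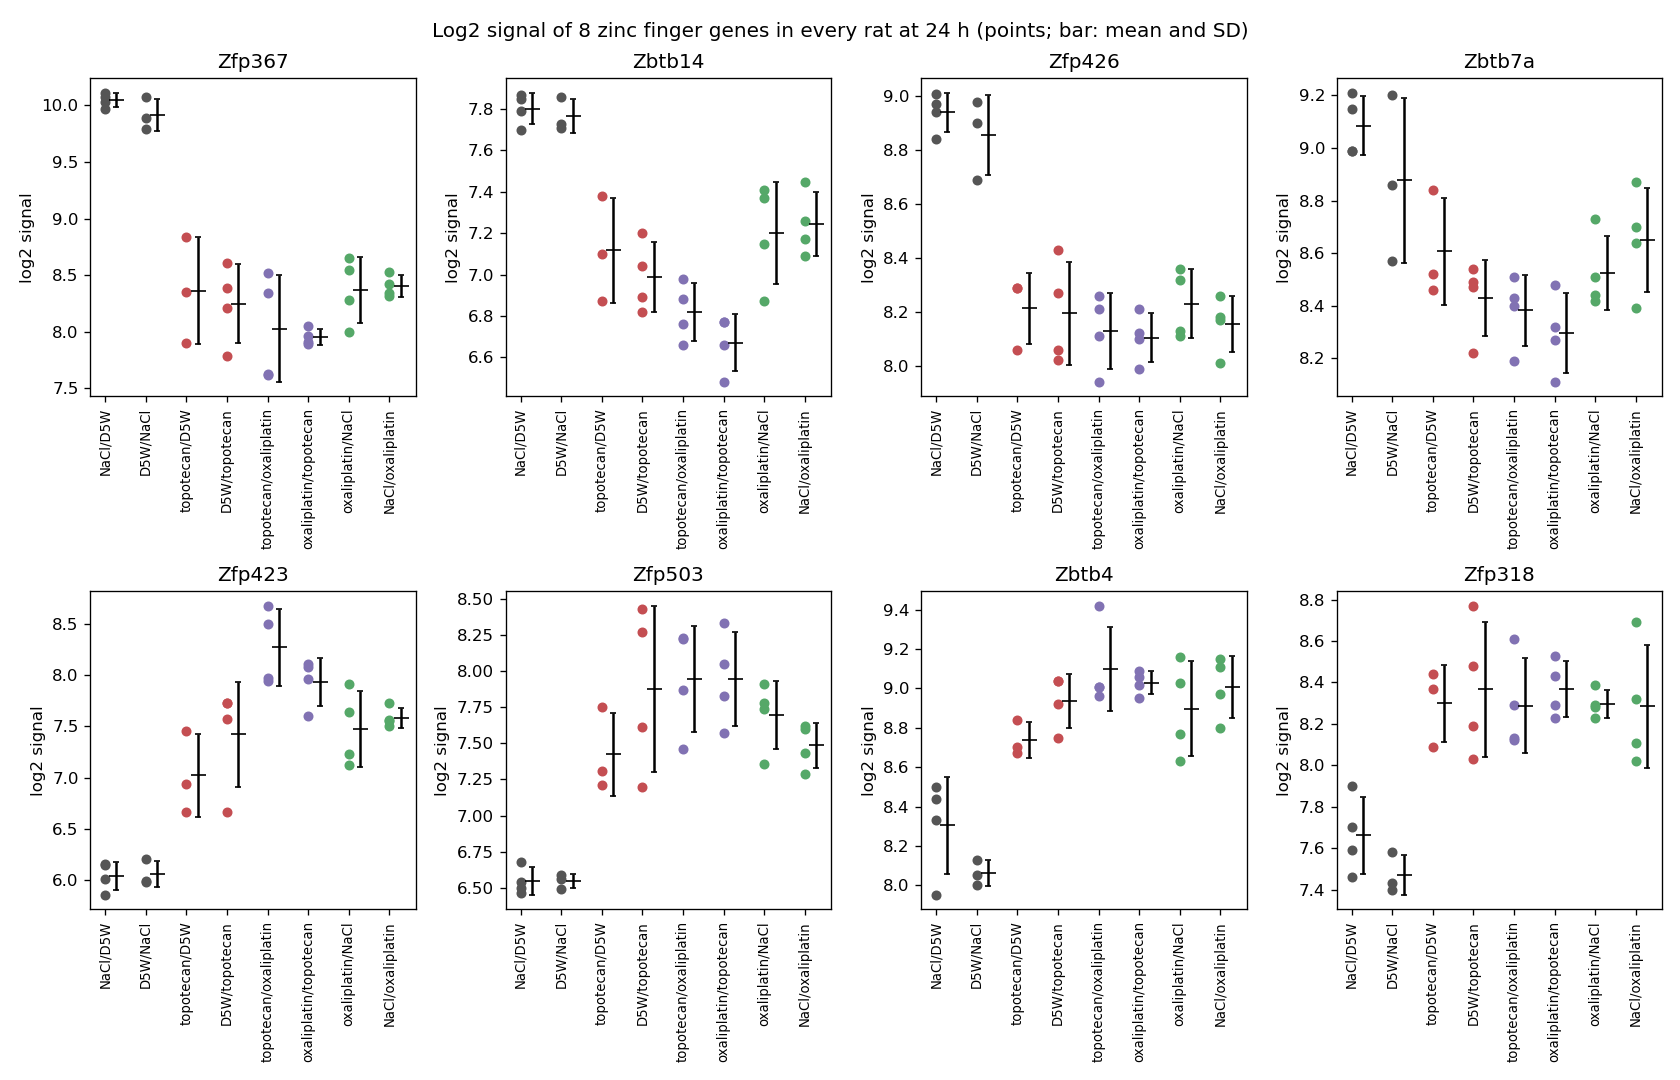
Log2 signal (y axis) of 8 zinc finger genes in every rat at 24 h, by group (x axis; grey vehicle, red topotecan alone, purple combinations, green oxaliplatin alone), with the mean and SD beside the points. Zfp367, Zbtb14 and Zfp426 lie below, and Zfp423, Zfp503, Zbtb4 and Zfp318 above, every rat of their vehicle group in all 6 treatments.

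At 24 h the markers were again apart from vehicle. The mean signal of 9 erythroid genes ran from 10.08 to 11.88 in the topotecan-containing groups and from 11.28 to 11.62 in the oxaliplatin groups, against 13.02 to 13.36 in both vehicle groups. The mean of 5 T cell genes ran from 8.69 to 9.80 in all treated groups against 7.98 to 8.38 in vehicle. Their part in the changes of the zinc finger genes at 24 h was not tested. Of the remaining Zbtb and Zscan members, Zbtb6 fell at 24 h in topotecan/D5W, NaCl/oxaliplatin and oxaliplatin/topotecan (-0.41, -0.45 and -0.57, the last at -0.37 without vehicle rat 24, adjusted p = 0.0826). Zbtb1 (-0.61) and Zbtb11 (-0.40) fell in topotecan/oxaliplatin, and Zbtb44 (-0.44 and -0.48) in topotecan/D5W and topotecan/oxaliplatin. Zbtb42 rose by 0.46, 0.43 and 0.34 in oxaliplatin/NaCl, NaCl/oxaliplatin and topotecan/oxaliplatin. Zbtb34 rose by 0.60 in NaCl/oxaliplatin, and Zbtb8os changed by -0.50 in oxaliplatin/NaCl and -0.54 in oxaliplatin/topotecan. Without vehicle rat 24 these were -0.22 and -0.26 and did not pass (adjusted p = 0.229 and 0.142). Zscan12 changed by -0.49, -0.48, -0.41 and -0.65 in the 4 treatments that contain oxaliplatin. Zscan21 fell in D5W/topotecan, oxaliplatin/NaCl and oxaliplatin/topotecan (-0.36, -0.47 and -0.41), and Zscan26 rose by 0.62 in D5W/topotecan and 0.59 in oxaliplatin/topotecan.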

How the data were processed

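Per the labels, marrow RNA was hybridised to Affymetrix rat arrays, and the authors deposited log2 values made by RMA, which corrects the background, quantile-normalizes the arrays and summarises probes by median polish, already reduced to 12560 probe sets by their filter (pvac) on the consistency of probes within a probe set. The authors had removed 1 outlier array. From these, 28 control probe sets were removed. Probe set symbols came from the array's annotation (10002 probe sets with 1 symbol, 292 with several, 2238 with none) and gene lengths from RefSeq (GRCr8). Tests used lmFit, contrasts.fit and eBayes of limma (version 3.58.1, under R 4.3.3) in 2 fits of 4 groups at 3 times, as in the study's methods, and 1 fit of all 8 groups for order and drug contrasts. The members, lists and named genes (5 largest changes per direction against vehicle, 3 in other contrasts, all Zbtb and Zscan genes, extremes of signal and genes nearest 0) were chosen with earlier results of these data known. Alternatives covered normalization, prior, thresholds, vehicle groups, probe sets, dim probe sets, animal set, muscle-rich arrays and each rat left out. The tests were checked on simulated data. No paired analysis was possible because the rat numbers are not shared between groups. The main tests had no block, and animal set was used as a block only in an alternative. An array has no read depth, and the precision of a change depends on the number of rats and on the noise of the probe set. With the same rats in topotecan/D5W at 1 h, the SE was 0.07 for Zfp180 and 0.23 for Zfp62.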

Additional observations from a re-analysis of the deposited data

Results flagged for a closer look

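Dixon's test for 1 rat far from the others of its group was run on 273 groups of values (11 genes and 2 summary values), and marked 11, where chance marks about 1 in 20. Among D5W/topotecan rats at 24 h these were rat 89 for Zfp521 (6.30) and Zfp423 (6.66) and rat 90 for Zfp280d (6.91). Among vehicle rats of NaCl/D5W they were rat 7 for Zfp521 at 1 h (5.95) and rat 6 for Zfp688 at 24 h (7.06). At 1 h they were rats 68 and 61 of oxaliplatin/topotecan for Zfp688 (9.37) and Zfp423 (5.32), and rat 49 of topotecan/oxaliplatin for Zfp280d (6.85). Rat 53 of topotecan/oxaliplatin stood apart for Zfp407 at 24 h (7.26). The long-minus-short value stood apart in rat 42 of oxaliplatin/NaCl at 24 h (0.21), one of the muscle-rich arrays, and in rat 34 of topotecan/D5W at 6 h (-0.02).

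Effects that differed between treatments or times by limma's test of the difference were as follows. Topotecan differed from oxaliplatin in 8 members when given first, led by Zfp277 (-0.91), Zbtb20 (-0.87), Zfp407 (-0.66), Zfp688 (1.55), Zfp580 (0.98) and Zbtb5 (0.65). It differed in 22 when given second, led by Zfp280d (-1.35), Zfp407 (-1.07), Zfp182 (-0.97), Zfp688 (1.35), Zfp219 (0.90) and Zfp597 (0.90). Topotecan first minus second differed in 10 members, led by Zbtb20 (-0.85), Zfp830 (-0.49), Zfp280d (1.20), Zfp236 (0.96) and Zfp182 (0.90). For the combination it differed in 9, led by Zfp61 (-0.77), Zfp407 (-0.57), Zfp710 (0.87), Zfp280d (0.87) and Zfp148 (0.74). Of all probe sets, 1.92% were higher and 10.8% lower with topotecan than with oxaliplatin given first, and 4.89% and 11.4% given second. For order, 4.84% were higher and 7.33% lower with topotecan alone given first, and 5.09% and 4.76% in the combination.

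From 1 h to 6 h, 23 members differed in topotecan/D5W, led by Zfp688 (-1.53), Zfp580 (-1.04), Zbtb5 (-1.03), Zfp521 (1.98), Zfp407 (1.20) and Zfp423 (1.12). In D5W/topotecan 35 differed, led by Zfp367 (-1.29), Zfp219 (-1.18), Zbtb5 (-1.08), Zfp521 (1.45), Zfp148 (1.17) and Zfp202 (1.14). In topotecan/oxaliplatin 22 differed, led by Zfp688 (-1.31), Zfp41 (-1.08), Zbtb5 (-1.0), Zfp521 (1.41), Zfp407 (0.84) and Zfp638 (0.72). In oxaliplatin/topotecan 30 differed, led by Zfp956 (-1.05), Zfp41 (-1.0), Zfp219 (-0.95), Zfp638 (1.17), Zfp710 (1.11) and Zfp148 (1.10). Of all probe sets, 13.7% were higher and 10.5% lower at 6 h than at 1 h in topotecan/D5W, and 16.7% and 13.9% in D5W/topotecan. The shares were 17.4% and 9.36% in topotecan/oxaliplatin, and 15.4% and 11.5% in oxaliplatin/topotecan.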

How the results depend on the processing

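Values not named otherwise are for topotecan alone (given first, then second), oxaliplatin alone (first, then second) and the combination (topotecan first, then oxaliplatin first). Requiring a fold above 2 left 5, 3, 0, 0, 4 and 10 members called at 1 h, 1, 0, 0, 0, 1 and 1 at 6 h, and 1, 3, 3, 2, 4 and 4 at 24 h. It left 1 and 3 in the drug contrasts (first, second), 1 and 0 in the order contrasts (topotecan alone, combination) and 8, 10, 3 and 5 for 6 h against 1 h. Without dim probe sets the counts were 11, 15, 0, 0, 12 and 18 at 1 h, 9, 7, 1, 2, 10 and 8 at 6 h, and 9, 9, 11, 13, 17 and 14 at 24 h, with 1 and 9 for drug, 4 and 3 for order and 6, 11, 8 and 13 for 6 h against 1 h; only 33 members were then tested. With only the groups compared in the fit, counts moved by over 1.5 times in topotecan/D5W (13 at 1 h, 11 at 24 h), topotecan/oxaliplatin (18 at 1 h), D5W/topotecan at 24 h (9), oxaliplatin/NaCl (0 at 1 h, 1 at 6 h), NaCl/oxaliplatin at 6 h (3), order (5 and 2) and topotecan/oxaliplatin at 6 h against 1 h (10). With the vehicle groups pooled they were 4, 10 and 52 in oxaliplatin/NaCl at 1, 6 and 24 h, 12 in NaCl/oxaliplatin at 6 h, 15 and 37 for drug and 19 and 20 for order. Animal set as a block gave 6 and 11 in oxaliplatin/NaCl and NaCl/oxaliplatin at 6 h, and 16 and 15 for order. A second quantile normalization gave 7 and 12 in the same pair at 6 h and 35 for topotecan/D5W at 6 h against 1 h. In oxaliplatin/NaCl, a prior with trend and robust fit gave 1 at 1 h, and leaving out muscle-rich arrays 1 at 1 h and 17 at 24 h. The probe set of largest variance moved none of the 28 counts by over 1.5 times.

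Leaving out 1 rat gave ranges of 0 to 2 members in oxaliplatin/NaCl at 1 h (0 without vehicle rat 14, 19 or 20 or rat 37 or 38), 1 to 5 at 6 h (5 without vehicle rat 21, 1 without vehicle rat 22 or rat 39), 3 to 8 in NaCl/oxaliplatin at 6 h (3 without vehicle rat 3 or rat 81, 4 without rat 76), 0 to 1 at 1 h (1 without rat 73), 11 to 27 in topotecan/D5W at 24 h (11 without rat 29, 13 without rat 36, 15 without vehicle rat 11) and 4 to 14 for the order of the combination (4 without rat 62, 5 without rat 55, 14 without rat 49). Of these counts 18 moved by over 1.5 times and 265 did not. Leaving out each rat for single genes and for members called in any or all of the topotecan-containing treatments was added after seeing the data; the counts in any at 1 h ran from 20 to 25 higher and 32 to 40 lower. The rank correlations with gene length, whose alternatives were chosen after seeing the data, moved by under 0.1 in all but NaCl/oxaliplatin within the first animal set (-0.23). The cause of these shifts was not tested, beyond fewer probe sets or rats entering a fit. Most members are dim, so small changes could be missed.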
